A study of Mus musculus with 36 samples.

Results

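The genes described here encode the proteins of the cytosolic ribosome. They were taken as every symbol made of Rpl, Rps or Rplp and a number, with the suffixes a, x and l allowed, that held at least 100 reads in each of 36 libraries. Of 22979 genes listed in the tables, 82 matched the symbol pattern and 80 met the read minimum. Rpl3l, with 12 reads in its lowest library, and Rpl39l, with 44, did not. The 80 genes comprised 43 large subunit proteins, 30 small subunit proteins, 3 proteins of the ribosomal stalk (Rplp0, Rplp1 and Rplp2) and 4 paralogues of other ribosomal proteins (Rpl10l, Rpl22l1, Rpl7l1 and Rps27l). Of the 80, 4 are X-linked (Rpl10, Rps4x, Rpl36a and Rpl39), and 29 hold annotated small nucleolar RNA (snoRNA) genes.

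Ribosomal protein mRNAs are among the most abundant and longest-lived mRNAs of growing cells, and their translation is controlled together. Many begin with a terminal oligopyrimidine (TOP) tract, a C at the cap followed by further C and T bases, through which growth signals regulate them. Introns of many of these genes encode snoRNAs, which guide chemical modification of RNA.

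The libraries are SLAM-seq of total RNA from mouse embryonic stem cells (mES cells) of a Cast x 129S background. New RNA was labelled with 4-thiouridine (4sU), which is read as C in place of T after iodoacetamide treatment. The study compared 3 lines, each 1 clone, with METTL3 tagged in clone 12D, YTHDC1 in Y12H and ZCCHC8 in Z12H. Each protein carried an FKBP12 tag with the F36V change, so that dTAG-13 triggers breakdown of the tagged protein. METTL3 writes N6-methyladenosine (m6A) on RNA, YTHDC1 binds that mark in the nucleus, and ZCCHC8 belongs to NEXT, an adaptor through which the nuclear exosome degrades RNA. Each line had an untreated arm (Ctrl) and a dTAG arm, in which dTAG-13 was given 2 h before doxycycline. All libraries, Ctrl included, came from cells whose 129S copy of Xist is driven by a TetOn promoter and carries a Bgl stem-loop array. These cells received doxycycline for 24 h before a uridine chase, the last 4 h of it with 4sU. The chase medium also held doxycycline. RNA was taken at 0, 90 and 180 min of the chase, in 2 replicates per line, arm and time. By the study's methods replicates for RNA sequencing are independent clones or independent repeats of a clone, and the wells of a replicate were divided from 1 batch of cells. The 6 libraries of an arm therefore come from 2 batches, each also used for the other arm, and p-values over 6 libraries per arm treat wells of a batch as separate samples. Because the degron acts on protein, read counts do not check the depletion.

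Libraries held 5274684 to 18652000 reads assigned to genes. All 8 mES cell markers were tested in each line, with a summed level of 2489 to 3829.9 CPM (reads scaled to a common library size) per library, and the 8 feeder fibroblast markers, of which 3 or 4 per line passed the count filter, summed to 5.97 to 30.0 CPM. Feeders had been removed by preplating. The 80 genes together took 3.97 to 6.26% of assigned reads, and the listed ribosomal protein pseudogenes 0.00698 to 0.0113%. Counts come from uniquely aligned reads. Of the 81-base windows in the annotated transcripts of these 80 genes, the read length used, a median of 17.3% per gene also occurred in a transcript of another gene, from 0% for 2 genes, Rpl10l among them, to 76.9% for Rpl23a. Counts of such genes are therefore uncertain, and 5 genes had at least 50% of windows shared.

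Start regions are given for members on which the results turn, to show the pyrimidine run, if any, near the start of canonical members and paralogues. The windows run from 10 bases before the annotated RefSeq start (GRCm38.p6) to 20 bases from it, 5′ to 3′ on the transcribed strand, and capitals mark the longest run of C and T.
Rplp2 (chr7:141447641-141447670, plus strand): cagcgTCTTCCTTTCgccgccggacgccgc
Rps27 (chr3:90213629-90213658, minus strand): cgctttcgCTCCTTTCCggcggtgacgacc
Rpl27a (chr7:109519185-109519214, plus strand): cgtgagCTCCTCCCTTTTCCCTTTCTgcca
Rpl7a (chr2:26910797-26910826, plus strand): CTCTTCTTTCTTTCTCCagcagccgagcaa
Rpl39 (chrX:37085203-37085232, minus strand): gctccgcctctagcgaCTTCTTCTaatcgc
Rpl10 (chrX:74270806-74270835, plus strand): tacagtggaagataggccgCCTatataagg
Rpl10l (chr12:66284382-66284411, minus strand): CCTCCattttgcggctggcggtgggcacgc
Rpl22l1 (chr3:28805498-28805527, plus strand): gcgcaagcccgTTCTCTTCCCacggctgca
Rpl7l1 (chr17:46782637-46782666, minus strand): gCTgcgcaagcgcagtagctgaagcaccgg

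The longest run was 20 bases in Rpl27a, 17 in Rpl7a, 10 in Rplp2, 9 in Rps27 and in Rps15a, 8 in Rpl39 and 3 in Rpl10 among the canonical members, and 10 in Rpl22l1, 5 in Rpl10l and 2 in Rpl7l1 among the paralogues. The lengths of the 2 kinds overlapped. A promoter entry was found for 60 of the 80 genes. A run of at least 8 C or T lay in the window of 24 of the 60 (40.0%), against 13.0% of 27025 genes with an entry. The letters CTTTCC, which can lie within such a run, occurred on the transcribed strand in 9 of the 60 (15.0%) and 1.52% of all, and on the other strand in 0 of the 60 and 1.51% of all. The annotated start is often not the base at which transcription begins, so a window without such a run does not show that the mRNA lacks a TOP tract.

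Per kilobase of the gene length given in the tables, and over the 18 Ctrl libraries, the highest levels were those of Rpl19 (1620.0 ± 243 CPM per kb, SD, n = 18), a large subunit protein, X-linked Rps4x (1519 ± 385) and Rpl4 (1322 ± 193), which lines the exit tunnel. Neighbours in this order differed by less than the larger of their SDs. The median of the 80 genes was 528 CPM per kb. The lowest were Rpl10l (27.3 ± 4.59), Rpl22l1 (73.0 ± 50.6) and Rps15a (74.0 ± 18.7), and here too neighbours differed by less than the larger SD. Within each replicate of each line, however, the Ctrl range of Rpl10l lay below that of Rpl22l1. In ZCCHC8 replicate 2 the ranges were 23.1 to 33.2 and 34.3 to 39.8 CPM per kb. The place of Rpl22l1 did not hold in every replicate. In replicate 1 it was at 109.9 to 165 CPM per kb (METTL3 Ctrl) and 122 to 145 (YTHDC1 Ctrl), above Rps15a at 84.9 to 104 and 90.2 to 106. The paralogue Rpl7l1 was at 109 ± 24.6. Rps27l (386 ± 117) was below its canonical partner Rps27 (480.0 ± 124) by less than their SDs, which include the gap between replicates. Within each replicate of each line, the Ctrl range of Rps27l lay below that of Rps27. In METTL3 replicate 1 the ranges were 472 to 588 and 610 to 650 CPM per kb.

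The replicates of the METTL3 and YTHDC1 lines differed in these genes, and the gap was smaller in the ZCCHC8 line. In the METTL3 line the 80 genes took 5.26 to 5.34% of reads in the Ctrl libraries of replicate 1 and 3.97 to 4.22% in those of replicate 2, while in its dTAG libraries the ranges overlapped (4.31 to 5.01% and 4.08 to 4.48%). The Ctrl ranges for YTHDC1 were 5.07 to 6.26% and 4.08 to 4.48%, and for ZCCHC8 4.86 to 4.96% and 5.00 to 5.13%. Averaged over arms and chase times, CPM in replicate 1 exceeded replicate 2 by a median of 0.36 on the log2 scale in the METTL3 line (63 of 80 genes higher) and 0.50 in the YTHDC1 line (74 of 80). The median over all genes tested was -0.01 and -0.02. In the ZCCHC8 line the median was 0.00, and the 80 genes stayed within -0.10 and 0.09.

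The genes with the widest gap were Rpl22l1 and Rpl39, a small protein of the exit tunnel. Rpl22l1 was at 209.7 to 314 CPM in replicate 1 and 61.8 to 79.3 in replicate 2 of the METTL3 line. The ranges for YTHDC1 were 187 to 277 and 61.0 to 83.8, and for ZCCHC8 69.5 to 81.9 and 58.4 to 77.5. Rpl39 was at 407 to 555 CPM in replicate 1 and 183 to 224 in replicate 2 of the METTL3 line, and at 168 to 233 in all ZCCHC8 libraries. All 4 X-linked members were higher in replicate 1 of the METTL3 line (by 0.62 to 1.25, log2) and of the YTHDC1 one (0.58 to 1.21), and within -0.07 and 0.07 in the ZCCHC8 line. Rps16 went the other way, by a mean of -1.16 (METTL3) and -0.94 (YTHDC1). In the METTL3 line its ranges overlapped, at 55.4 to 478 CPM in replicate 1 and 400 to 482 in replicate 2. It was 1 of 2 members below -1 in that line. For Rpl22l1 and Rpl39 the gap was present in both arms, and comparisons of arms in these 2 lines are given with the replicate as a block where that changes a call.

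**Figure D1:**
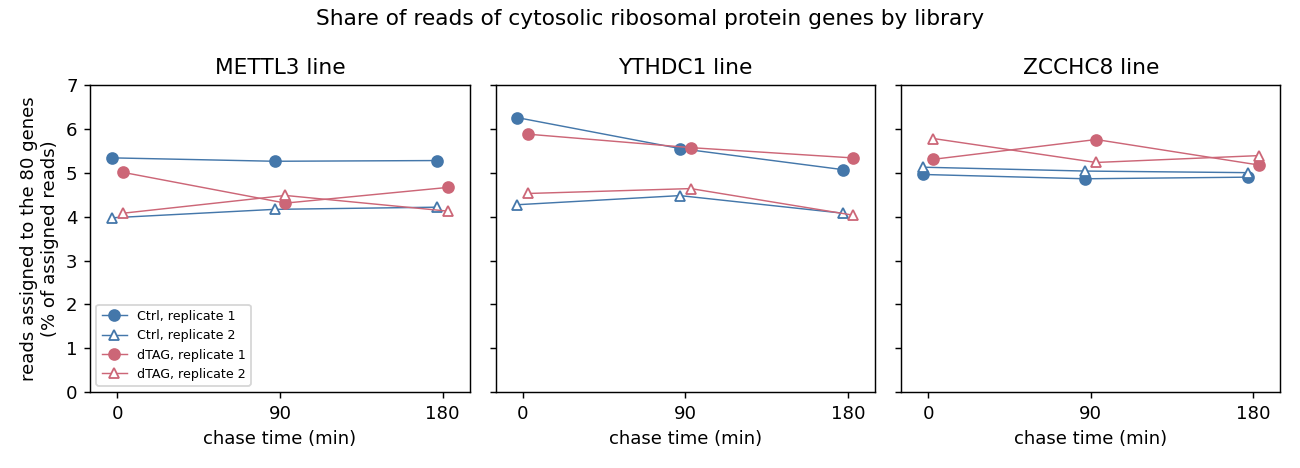
Share of assigned reads (%) taken by the 80 cytosolic ribosomal protein genes in each of 36 libraries, against chase time in minutes. Points are libraries, colours are arms and marker shapes are replicates: the dTAG points of the ZCCHC8 line (5.18 to 5.78%) lie above its Ctrl points (4.86 to 5.13%), whereas the YTHDC1 line separates by replicate and the METTL3 line does so in Ctrl, with overlap in dTAG.

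After dTAG-13, most ribosomal protein mRNAs of the ZCCHC8 line were slightly higher. Of the 80 genes 45 rose and 1 fell (adjusted p under 0.05), in a comparison in which 39.6% of 13962 genes passed the test, 20.1% of them higher and 19.5% lower. The median difference of the 80 genes was 0.12 on the log2 scale, against -0.00 over all genes tested. The range was -0.14 to 0.30, with 76 of 80 positive. By pair, the median was 0.05, 0.27 and 0.07 at 0, 90 and 180 min in replicate 1. In replicate 2 it was 0.18, 0.05 and 0.11. Pair medians ran from -0.15 to 0.05 in the YTHDC1 line and from -0.36 to 0.10 in the METTL3 line. Single pairs of those lines thus moved by more than 0.12, though all pairs of the ZCCHC8 line were positive. Their summed share of reads was 4.86 to 5.13% in the 6 Ctrl libraries and 5.18 to 5.78% in the 6 dTAG libraries, and the ranges did not overlap. All differences are in libraries of bulk RNA scaled to one another, so a change in all mRNA per cell is not visible, and fewer cells of a type cannot be told apart from less RNA per cell.

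The rise ran through both subunits. Of 43 large subunit genes 26 rose and 1 fell (median 0.12), of 30 small subunit genes 14 rose (median 0.11), all 3 stalk genes rose, and of the 4 paralogues 2 rose. Hosts of snoRNA genes (16 of 29 higher, 1 lower, median 0.13) and the other members (29 of 51 higher, median 0.12) had similar values. Of the 24 members with a run of at least 8 C or T near their start 14 rose and 1 fell, and of the 36 with an entry but no such run 19 rose. Among the 12 genes with under 5% of windows shared with another gene, 8 rose and 1 fell. Of the 53 members that no other annotated gene overlaps, 28 rose and 1 fell.

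Rpl10a (chr17:28328471-28331033 in mm10, as are the coordinates that follow), a protein of the large subunit's mobile stalk, rose most. Its level in Ctrl was 697, 731 and 702 CPM at 0, 90 and 180 min in replicate 1 and 771, 739 and 707 in replicate 2. In dTAG it was 862, 979.7 and 825 CPM in replicate 1 and 966, 866 and 875 in replicate 2. Every dTAG library lay above every Ctrl library, a log2 difference of 0.30 (SE 0.046, adjusted p = 1.11e-05). The same held for 10 of the 80 genes, against 6.18% of all genes whose dTAG range lay wholly above the Ctrl range.

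Rps28 (chr17:33819027-33824562), a small subunit protein near the mRNA exit, was at 230.0, 217 and 219 CPM in Ctrl replicate 1 and 246, 237 and 239 in replicate 2. In dTAG it was at 262, 317 and 256, and at 302, 262 and 286, a difference of 0.28 (SE 0.054, adjusted p = 0.000235). Rpl27a, whose start region holds the longest pyrimidine run shown above, was at 422 to 470.1 CPM in Ctrl and 501 to 568 in dTAG (0.25, SE 0.045, adjusted p = 0.000101). Neither gene had overlapping arms. Rpl10a and Rps28 are each overlapped by 1 other annotated gene, and whether counting used strand was not stated.

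Of the paralogues, Rpl7l1 and Rpl10l rose and the other two did not pass the test. Rpl7l1, a protein of ribosome assembly related to Rpl7, was at 283, 250.5 and 215 CPM in Ctrl replicate 1 and 289.7, 244 and 220.1 in replicate 2. In dTAG it was at 331, 301 and 275, and at 325, 289.7 and 273, so each dTAG library lay above its own Ctrl library although levels declined along the chase in both arms (0.26, SE 0.042, adjusted p = 2.08e-05). Its partner Rpl7 rose by 0.12 (adjusted p = 0.0462). Rpl10l rose by 0.24 (SE 0.070, adjusted p = 0.00883), higher in 6 of 6 pairs. Rpl22l1 (-0.05, adjusted p = 0.542) and Rps27l (-0.09, adjusted p = 0.146) did not pass, while Rpl22, the partner of the former, rose by 0.20 (adjusted p = 0.000300).

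The 3 stalk proteins recruit translation factors to the ribosome, and their mRNAs rose by similar amounts. Rplp0 was at 1143 to 1263 CPM in Ctrl and 1234 to 1492 in dTAG (0.14, adjusted p = 0.0228). Rplp1 rose by 0.13 (adjusted p = 0.0284) and Rplp2 by 0.12 (adjusted p = 0.0489). Each was higher in 6 of 6 pairs, and in each the ranges of the arms overlapped.

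None of the 4 X-linked members passed the test as higher. Rpl39 (chrX:37082520-37085402) was the 1 member that fell. Its level in Ctrl was 209, 207 and 199 CPM in replicate 1 and 233, 223 and 194 in replicate 2. In dTAG it was 205, 190.1 and 168, and 208, 196 and 186, lower in 6 of 6 pairs with overlapping ranges (-0.14, SE 0.045, adjusted p = 0.0194). Rpl10, which helps form the peptidyl transferase centre, differed by -0.07 (adjusted p = 0.191), Rpl36a by 0.03 (adjusted p = 0.625) and Rps4x by 0.03 (adjusted p = 0.679).

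The number of calls depended on single pairs of libraries more than the direction did. Leaving out the 90 min pair of replicate 1, which holds the shallowest library of the series, left 17 calls. Without the 0 min pair of replicate 2 there were 23, and without the 180 min pair of replicate 2 there were 25. The share of all genes passing in these fits is not given here, so a drop particular to the members was not shown. With replicate 1 alone 10 members passed (24.5% of all genes) and with replicate 2 alone 58 (37%), and the replicate block gave 57 (45.9%). RLE size factors gave 27 (40.1%), DESeq2 30 (35.4%) and no filter on low counts 29 (29%). When each replicate entered as the sum of its chase libraries, so that 2 dTAG samples stood against 2 Ctrl samples, 13 passed, all higher (24.8%), among them Rpl10a (adjusted p = 0.00398), Rpl7l1 (adjusted p = 0.00820) and Rps28 (adjusted p = 0.0149), while Rpl39 (adjusted p = 0.117) and Rpl10l (adjusted p = 0.0573) did not. Between the fits of replicate 1 alone and replicate 2 alone, 10 genes passed in the same direction in both, and all 80 genes had the same sign.

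**Figure D2:**
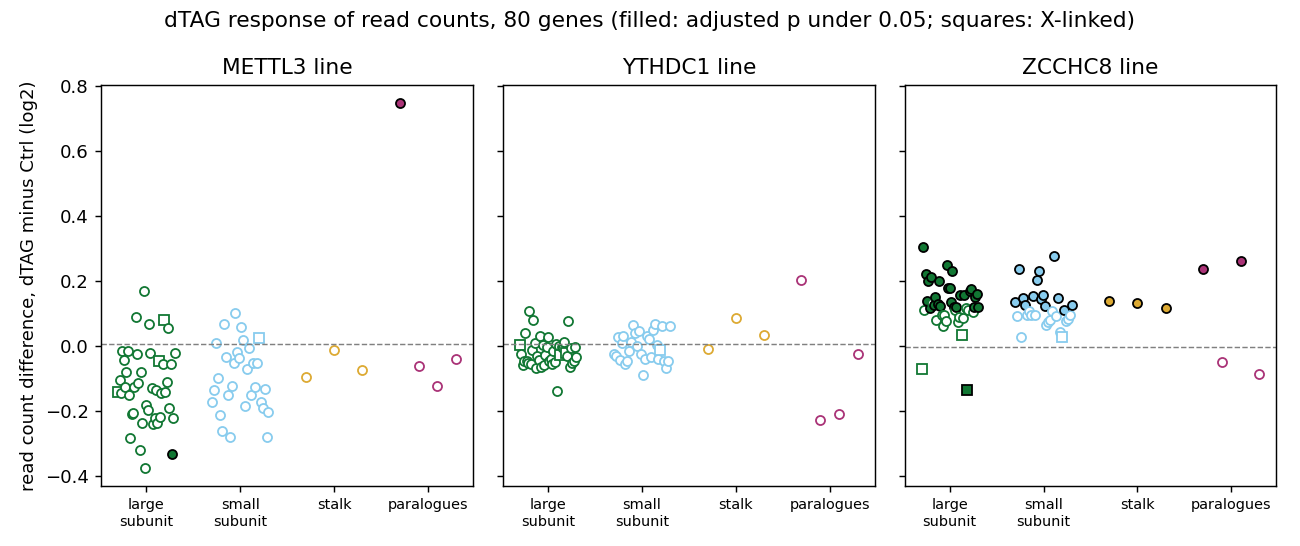
Difference in read counts between dTAG and Ctrl (log2, edgeR) for the 80 genes in each line, by role. Each point is a gene, filled where the adjusted p is under 0.05, squares are X-linked genes and the dashed line is the median of all genes tested. In the ZCCHC8 line 76 of 80 points are above 0, and in the METTL3 line Rpl10l stands apart at 0.75.

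Among the members in the METTL3 line, the paralogue Rpl10l rose, Rpl7a fell and the other 78 did not pass the test. Of the 80 genes 1 rose and 1 fell, where 20.1% of 14413 genes passed the test (11.3% higher, 8.8% lower). The median difference was -0.12 (all genes 0.01) and 68 of 80 were negative. Rpl10l (chr12:66283379-66284401), a retroposed copy of Rpl10 known from the testis, was at 24.8, 26.9 and 20.4 CPM in Ctrl replicate 1 and 29.6, 27.7 and 24.9 in replicate 2. In dTAG it was at 40.3, 38.2 and 40.5, and at 45.1, 48.2 and 46.1. Every dTAG library lay above every Ctrl library, and the fold was 1.68 (0.75 on the log2 scale, SE 0.114, adjusted p = 0.00128). With chase libraries added up within each replicate, where 0% of all genes passed, the difference was 0.72 (adjusted p = 0.527). It was the only member whose arms did not overlap, where 5.15% of all genes were wholly higher and 2.75% wholly lower. Its partner Rpl10 differed by -0.14 (adjusted p = 0.781), and none of the 81-base windows of Rpl10l occurs in another annotated gene.

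Rpl7a, a large subunit protein whose gene hosts snoRNAs, fell. It was at 976, 867 and 766 CPM in Ctrl replicate 1 and 735, 753 and 681 in replicate 2, and at 689, 564 and 573, and 682, 712 and 576, in dTAG. It was lower in 6 of 6 pairs with overlapping ranges (-0.33, SE 0.104, adjusted p = 0.0443), and leaving out any 1 of the 6 pairs, or summing the chase libraries (adjusted p = 0.779), ended the call.

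With the replicate as a block 14 genes passed in the METTL3 line, 1 higher and 13 lower, where 48.5% of all genes passed. The 13 were 10 large subunit genes (-0.45 to -0.18) and 3 small subunit genes (-0.34 to -0.27). The replicates differed in their calls. Replicate 1 alone gave 28 calls (40.1% of all genes) and replicate 2 alone 10 (52.3%), with 3 genes called in the same direction in both (Rpl10l, Rpl24 and Rpl7a) and 3 in opposite directions (Rplp1, Rplp2 and Rps29). The sign was shared by 39 of 80 genes. By pair, the median difference of the 80 genes was -0.16, -0.36 and -0.12 at 0, 90 and 180 min in replicate 1, and 0.01, 0.10 and -0.06 in replicate 2.

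In the YTHDC1 line no member passed the test without a replicate term, where 5.25% of 14199 genes did. The gap between replicates was wider for the members (median 0.50, log2) than for all genes (-0.02), and that fit counts it as error. By edgeR 0 of the 80 had an unadjusted p under 0.05, and DESeq2 called 0 of them and 8.14% of all genes. Differences ranged from -0.23 to 0.20 with a median of -0.02. By pair, the median of the 80 genes was -0.15, -0.02 and 0.03 at 0, 90 and 180 min in replicate 1. In replicate 2 it was 0.05, 0.05 and -0.04. With the replicate as a block 4 members passed, where 27.3% of all genes did, among them the paralogues Rpl22l1 (-0.21, SE 0.042, adjusted p = 0.000989) and Rpl7l1 (-0.20, SE 0.040, adjusted p = 0.000640). The others were Rpl15 (0.11) and Rpl35a (-0.13).

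Rpl22l1 (chr3:28805436-28807424) was at 269, 277 and 233 CPM in Ctrl replicate 1 of the YTHDC1 line and 82.9, 83.8 and 64.6 in replicate 2, and at 232, 239 and 187, and 73.1, 73.1 and 61.0, in dTAG. The gap between replicates was therefore wider than that between arms, and within each replicate every dTAG library was below the Ctrl library of its time. Rpl7l1 (chr17:46773907-46782672) went the same way, from 417, 380.3 and 315, and 268, 250.4 and 222, in Ctrl to 374, 307 and 267, and 250.3, 224 and 187, in dTAG. Both genes are overlapped by 1 other annotated gene.

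Tested directly and without the replicate as a block, few read count responses differed between lines. The METTL3 and YTHDC1 lines differed for 1 of the 80 genes, Rpl10l (0.52, SE 0.134, adjusted p = 0.00543), where 20.6% of 15105 genes did. The ZCCHC8 and METTL3 lines differed for 3 genes, Rpl10l (-0.55), Rpl29 (0.33, adjusted p = 0.0483) and Rpl7a (0.45, adjusted p = 0.0198), where 23.7% of all genes did. With the replicate as a block the counts were 17 (42.8% of all genes) and 40 (43.5%), and 38 of the 40 were higher in the ZCCHC8 line. Between ZCCHC8 and YTHDC1, 0 genes differed and 0 had an unadjusted p under 0.05, where 14.4% of all genes differed, and 7 differed with the block (32.3%). So the rise of the ribosomal protein genes in the ZCCHC8 line was not shown to be particular to it against the YTHDC1 line.

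Other gene groups of the translation machinery are given for comparison, as genes higher and lower of those tested. Over all genes 11.3% were higher and 8.8% lower in the METTL3 line, 5.25% passed in the YTHDC1 line, and 20.1% were higher and 19.5% lower in the ZCCHC8 line. Mitochondrial ribosomal protein genes numbered 19 and 1 of 78 for METTL3, 0 and 1 for YTHDC1, and 7 and 23 for ZCCHC8. Other TOP mRNAs of translation numbered 0 and 0 of 15, 0 and 0, and 5 and 0. Ribosome biogenesis genes numbered 5 and 3 of 39, 0 and 0, and 9 and 1. Of the 4 ribosomal proteins whose symbols lie outside the pattern 0, 0 and 2 rose, and of 5 pseudogenes tested 0 passed in any line. In the ZCCHC8 line the TOP mRNAs had a median of 0.09 and the mitochondrial group one of -0.05.

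The new-to-total ratio is the fraction of a gene's RNA estimated to carry label, and it was low for ribosomal protein mRNAs. Its median over the 80 genes was 0.173 to 0.236 per library, and over the 7011 genes tested in all lines 0.355 to 0.646. Rpl7l1 lay apart, with Ctrl medians of 0.611 (METTL3), 0.617 (YTHDC1) and 0.623 (ZCCHC8).

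**Figure D3:**
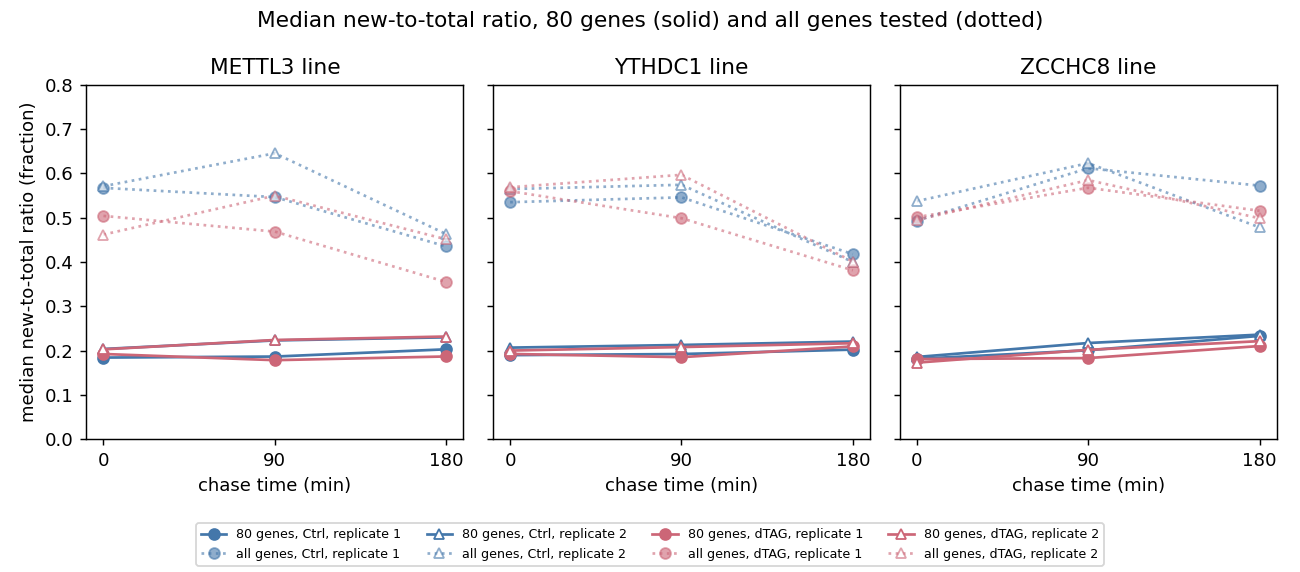
Median new-to-total ratio (fraction) per library against chase time in minutes, for the 80 genes (solid) and all genes tested (dotted). The 80 genes lie between 0.173 and 0.236 in every library and all genes between 0.355 and 0.646.

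In the METTL3 line the median ratio difference over all genes was -0.15 on the log2 scale, with 36.7% of 8289 genes passing (3.99% higher, 32.7% lower), while the 80 genes had a median of -0.02, with 1 higher and 3 lower. Rpl10l had the widest difference. Its ratio in Ctrl was 0.398, 0.371 and 0.391 in replicate 1 and 0.323, 0.470 and 0.538 in replicate 2, and in dTAG 0.198, 0.195 and 0.256, and 0.186, 0.254 and 0.295. Every dTAG library lay below every Ctrl library (-0.85, SE 0.093, adjusted p = 1.88e-06). Its read count was higher and its ratio lower in the same libraries. The plain T-to-C rate of its reads also fell (-0.80, adjusted p = 2.25e-05), 1 of 2 members called on that rate, where 20.8% of all genes were.

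**Figure D4:**
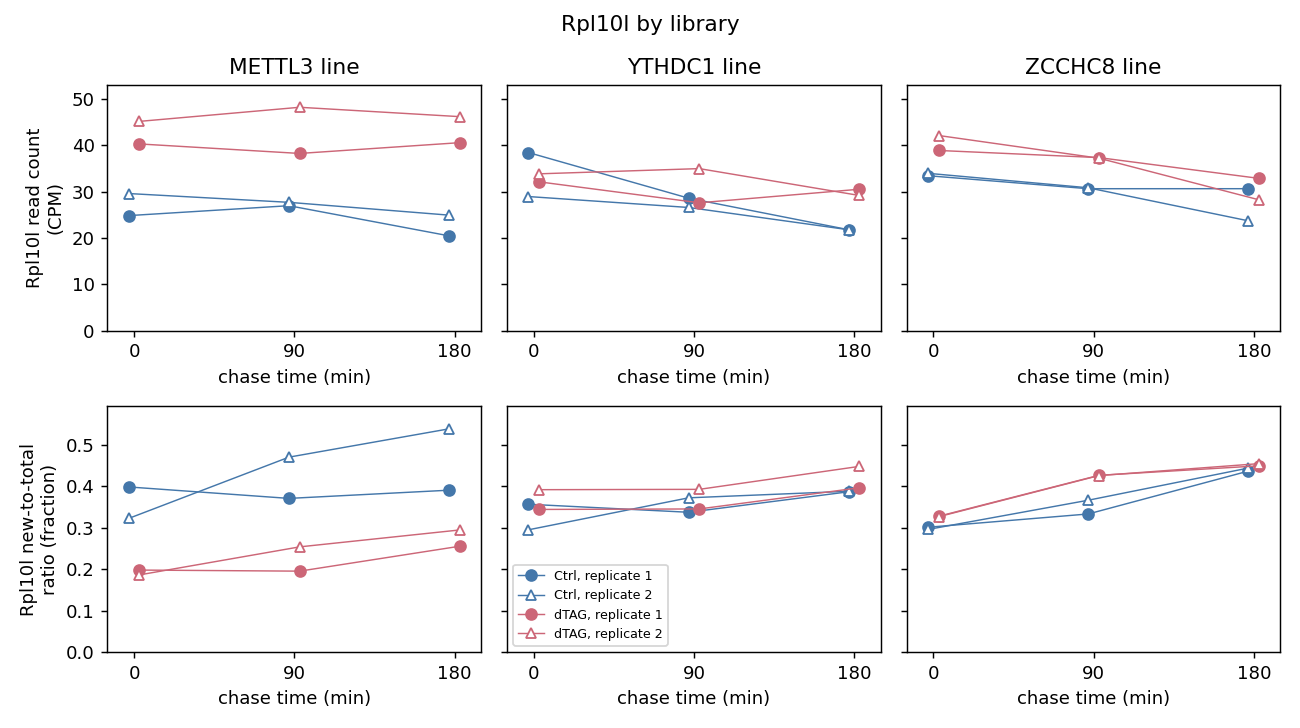
Rpl10l by library: read count (CPM, upper row) and new-to-total ratio (fraction, lower row) against chase time in minutes, in each line. In the METTL3 line all dTAG points lie above the Ctrl points for counts (38.2 to 48.2 against 20.4 to 29.6) and below them for the ratio, and in the other lines the ranges of counts overlap.

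The other called members differed by less. The ratio of Rpl3, which lies near the peptidyl transferase centre, was 0.143 to 0.218 in Ctrl (median 0.180) and 0.0951 to 0.199 in dTAG (median 0.158), a difference of -0.32 (SE 0.085, adjusted p = 0.00645). Rplp1 fell by 0.20 (SE 0.072, adjusted p = 0.0375). Both were lower in 6 of 6 pairs with overlapping ranges, and on the T-to-C rate neither passed (adjusted p = 0.0825 and 0.286). Rpl22l1 rose, higher in 6 of 6 pairs (0.26, SE 0.076, adjusted p = 0.0106), also on the T-to-C rate (adjusted p = 0.0310).

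In the YTHDC1 line 0 of the 80 genes passed for the ratio by limma, where 1.05% of 8820 genes did. Of the 80, 4 had an unadjusted p under 0.05, and with the T-to-C rate 0 passed (0.0567% of all genes). Of the 80 genes 2 fell in the ZCCHC8 line, where 1.6% of 7251 genes passed (0.565% higher, 1.03% lower). The median of the 80 was -0.10 (all genes -0.04), 76 of 80 were negative, and 39 had an unadjusted p under 0.05, of which 37 were lower. The share of all genes with an unadjusted p under 0.05 is not given here, so an excess of members was not shown by these counts.

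Rpl39 was among the 2 genes. Its ratio in Ctrl was 0.172, 0.179 and 0.203 in replicate 1 and 0.175, 0.195 and 0.214 in replicate 2, and in dTAG 0.138, 0.118 and 0.157, and 0.130, 0.166 and 0.177 (-0.37, SE 0.065, adjusted p = 0.0113). It was lower in 6 of 6 pairs, as was its read count. The ranges of the arms overlapped. On the T-to-C rate, where 0.386% of all genes passed, Rpl39 did too (adjusted p = 0.0207). With either replicate alone 0 of the 80 genes passed.

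**Figure D5:**
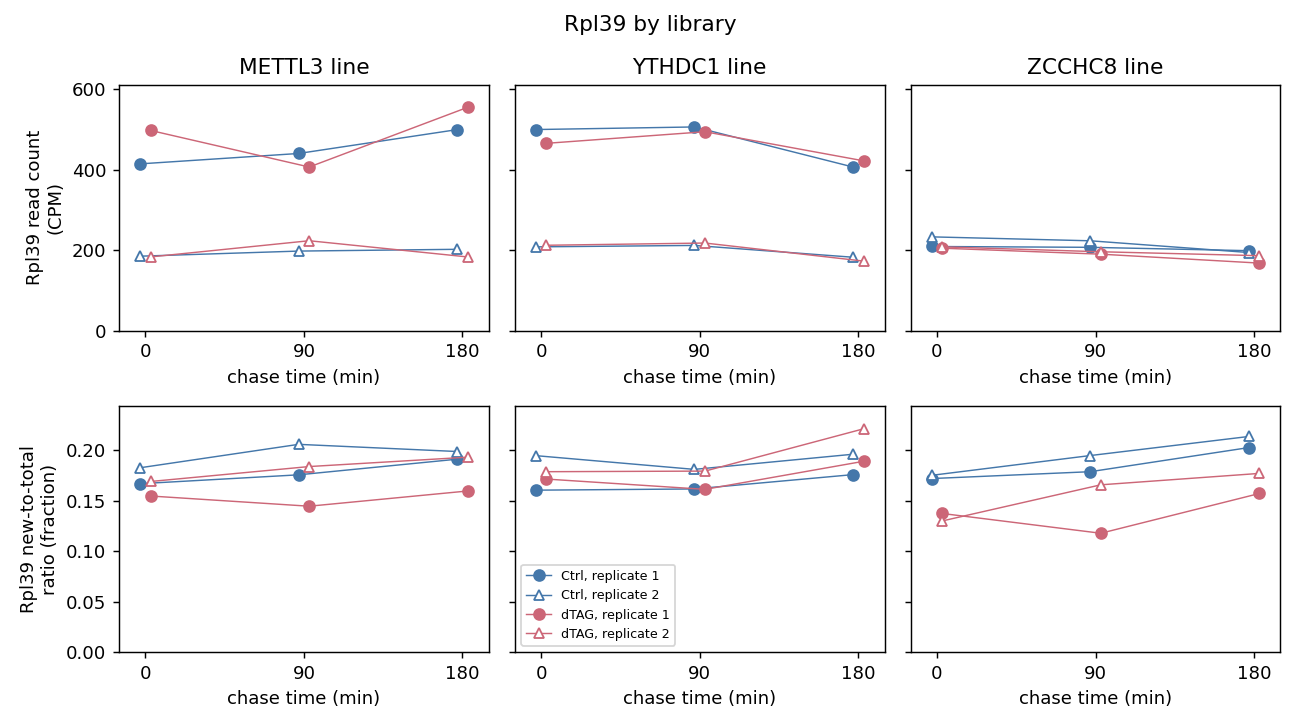
X-linked Rpl39 by library: read count (CPM, upper row) and new-to-total ratio (fraction, lower row) against chase time in minutes. Counts separate by replicate in the METTL3 and YTHDC1 lines, and in the ZCCHC8 line they lie between 168 and 233, with each dTAG ratio below the Ctrl ratio of its replicate and time.

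At 0 min, multiplying CPM by the ratio splits each gene into new and old RNA, which is given as a description and was not tested. In the ZCCHC8 line the median dTAG-to-Ctrl difference of the 80 genes was 0.01 for new and 0.05 for old RNA in replicate 1, and 0.06 and 0.22 in replicate 2. In the METTL3 line it was -0.12 and -0.18, and 0.01 and 0.03. In the YTHDC1 line it was -0.13 and -0.16, and -0.02 and 0.06.

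Over the chase, ribosomal protein mRNAs of Ctrl libraries had more positive label slopes than all genes tested, by the medians. The median slope of the log2 ratio per h was 0.06 for METTL3 (all genes -0.08), 0.04 for YTHDC1 (-0.11) and 0.12 for ZCCHC8 (0.04). The slope was called positive for 10, 4 and 43 of the 80 genes, where 19%, 19% and 36.9% of all genes did, and called negative for 3, 4 and 1, where 45.9%, 48.3% and 29.2% did. The plain T-to-C rate gave other signs. On that rate 0 members had a positive slope in any line (2.64%, 4.39% and 7.03% of all genes) and 15, 15 and 10 a negative one (61.4%, 63.8% and 50.3%), and the medians were -0.02, -0.04 and 0.00, against -0.22, -0.25 and -0.14 for all genes.

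Rpl22l1, Rpl10a and Rpl12 had the most negative mean slopes (-0.245, -0.185 and -0.113 per h over 3 lines). For Rpl22l1 the slope was -0.26 for METTL3 (adjusted p = 3.76e-06), -0.17 for YTHDC1 (adjusted p = 0.0166) and -0.30 for ZCCHC8 (adjusted p = 0.00246). For Rpl10a it was -0.21 (adjusted p = 0.000295), -0.23 (adjusted p = 0.000739) and -0.11 (adjusted p = 0.0523), the last passing on the T-to-C rate (-0.26, adjusted p = 0.000372). At the other end were Rps27l (0.163), Rpl17 (0.139) and Rps3a1 (0.135), none of which passed on the T-to-C rate.

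The arms did not differ in label loss for any of the 80 genes in any line by limma, where 1%, 0% and 0% of all genes did in the METTL3, YTHDC1 and ZCCHC8 lines. Unadjusted p-values under 0.05 numbered 1, 0 and 0, the 1 being Rpl29 in the METTL3 line (-0.16 per h), and on the T-to-C rate 0 members passed in any line (3.02%, 0% and 0% of all genes). Differences of slope ranged from -0.16 to 0.05, from -0.07 to 0.09 and from -0.10 to 0.08 per h.

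Ratio responses, fitted with the replicate as a block, were also compared between lines. Between the METTL3 and YTHDC1 lines 7 of the 80 differed (2 higher, 5 lower, where 23.4% of all genes differed, 1.2% higher and 22.3% lower), between ZCCHC8 and METTL3 14 (2 higher, 12 lower, against 23.9%, 19.3% and 4.61%), and between ZCCHC8 and YTHDC1 2 (against 0.913%). Without the block the counts were 2, 4 and 0, and the share of all genes passing in that fit is not given here. The median of all genes differed by -0.12, 0.10 and -0.03, and that of the 80 genes by 0.00, -0.08 and -0.10. The 2 genes of the last pair were Rpl10a (0.32, adjusted p = 0.0472) and Rpl39 (-0.41, adjusted p = 0.00735).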

How the data were processed

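SLAM-seq libraries of 36 samples were analysed, 6 per line and arm. The authors removed rRNA reads, aligned the rest with STAR 2.5.2b to mm10, kept unique alignments and ran GRAND-SLAM (version not given in the sources used here) on each line and replicate. The deposited tables list raw read counts, the new-to-total ratio as a fraction (the posterior maximum), and T-to-C conversions with the coverage of T positions, a signal from which the T-to-C rate was computed here. A further 252 columns of per-sample values were not used. Gene length is as the deposited tables list it.

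Counts were tested with edgeR 4.0.16 (quasi-likelihood, robust, TMM, filterByExpr) with chase time as a factor and, unless a replicate block is named, no replicate term. Log2 ratios were tested with limma 3.58.1 (robust) with the replicate as a block. For ratios, all libraries held 100 or more reads and a ratio no lower than 0.02. P-values are two-sided and Benjamini-Hochberg adjusted over all genes tested, with a threshold of 0.05. Both were tested on simulated data that held no difference between replicates. That test does not show how the p-values behave with the gaps between replicates described above. Same-numbered libraries deviated together (r = 0.357 to 0.883 across genes, which are not independent replicates), each number is 1 deposited table, and the study's methods divide the wells of a replicate from 1 batch of cells, so replicate numbers were taken to pair the libraries. Depth limits low genes, such as Rpl10l, more than others.

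The members and lists were chosen with earlier results of these data known. Named genes were the members with the largest called changes in counts (5 per direction) and ratio (3 per direction) that moved the same way in at least 5 of 6 pairs, the 3 most negative and 3 most positive label slopes, the 3 highest and 3 lowest per length, the stalk genes, the X-linked genes, and the paralogues with their partners. Genes named only for a block, a single replicate, a gap between replicates or a difference between lines were chosen after their values were seen. Alternatives were DESeq2 1.42.0, RLE size factors, no count filter, the replicate block, summed chase libraries, the T-to-C rate, another read minimum, and leaving out replicates. Leaving out 1 pair of libraries was added after seeing the data. Windows and promoters came from RefSeq (GRCm38.p6) and GENCODE annotation tables. The values of some single members are not reported here, and these members stay in all counts and medians.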

Additional observations from a re-analysis of the deposited data

Results flagged for a closer look

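For the genes named by the rule in the methods, the values here are differences between lines in the dTAG response that passed a test of the difference itself (edgeR for read counts, limma for the ratio), on the log2 scale. Rpl10l differed between the METTL3 and YTHDC1 lines by 0.52 in read counts (adjusted p = 0.00543) and by -0.97 in the new-to-total ratio (adjusted p = 6.14e-08). It differed between ZCCHC8 and METTL3 by -0.55 in counts (adjusted p = 0.00349) and by 1.00 in the ratio (adjusted p = 2.44e-08). Rpl7a differed between ZCCHC8 and METTL3 by 0.45 in counts (adjusted p = 0.0198) and by -0.23 in the ratio (adjusted p = 0.0185), and between METTL3 and YTHDC1 by 0.19 in the ratio (adjusted p = 0.0485).

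For these genes the remaining differences were in the ratio. Between METTL3 and YTHDC1 they were -0.39 for Rpl3 (adjusted p = 0.000970), -0.20 for Rplp1 (adjusted p = 0.0400), -0.27 for Rps27l (adjusted p = 0.0285) and -0.22 for Rps4x (adjusted p = 0.0103). Between ZCCHC8 and METTL3 they were -0.26 for Rpl10 (adjusted p = 0.0124), 0.29 for Rpl10a (adjusted p = 0.00982), -0.21 for Rpl17 (adjusted p = 0.0449), -0.25 for Rpl22 (adjusted p = 0.00922), -0.51 for Rpl22l1 (adjusted p = 0.00593) and -0.20 for Rpl27a (adjusted p = 0.0402). Between ZCCHC8 and YTHDC1 they were 0.32 for Rpl10a (adjusted p = 0.0472) and -0.41 for Rpl39 (adjusted p = 0.00735). Other members also passed, in the ratio or, for Rpl29, in read counts, and are not listed here.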

How the results depend on the processing

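Counts here are of the 80 genes past the threshold, and the cause of a change was not tested. Shares of all genes passing are given for some of these settings only. A count without its share does not show a change particular to the members. For read counts in the METTL3 line (2 as reported), no filter gave 1, summed chase libraries 0 and the replicate block 14, and leaving out replicates or pairs 1 to 28. In the YTHDC1 line (0) the block gave 4 and leaving out 0 to 4. In the ZCCHC8 line (46) RLE size factors gave 27, DESeq2 30, no filter 29, summed libraries 13, and leaving out 10 to 58. Differences between lines in counts were 1, 0 and 3 for METTL3 minus YTHDC1, ZCCHC8 minus YTHDC1 and ZCCHC8 minus METTL3. With the replicate block they were 17, 7 and 40. With 1 replicate left out they were 6 to 20, 1 to 9 and 17 to 32. Of all genes, 25.1 to 43.1%, 11.9 to 29.2% and 27.8 to 42.3% differed in those fits. For the ratio in the METTL3 line (4), the T-to-C rate gave 2, no replicate block 1 and leaving out 1, and in the ZCCHC8 line (2) the T-to-C rate gave 1, a minimum of 20 reads 0 and leaving out 0. Ratio differences between lines without the block were 2, 0 and 4, and with 1 replicate left out 2 to 3, 0 and 2 to 4. Label loss in Ctrl libraries gave 6 (at least 20 reads) and 8 (no block) in the METTL3 line and 0 to 5 with a replicate left out, 15 (T-to-C rate) and 0 to 1 in the YTHDC1 line, and 10 (T-to-C rate), 29 (at least 20 reads) and 1 to 21 in the ZCCHC8 line. Without replicate 1 the direction turned in the METTL3 line for Rplp1 (0.23, and -0.31 without replicate 2) and Rplp2 (0.16, and -0.32) and in the METTL3 minus YTHDC1 difference for Rplp1 (0.20, and -0.45 without replicate 2). In Ctrl slopes it turned for Rpl10l in the METTL3 line without replicate 2 (-0.00951, and 0.25 without replicate 1).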
